A study of Homo sapiens with 18 samples.

Results

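The human APOBEC3 genes were followed in T47D cells, an estrogen receptor-positive luminal breast cancer line, treated with the PARP inhibitors niraparib or olaparib. The family was taken by name, as the 7 genes APOBEC3A, APOBEC3B, APOBEC3C, APOBEC3D, APOBEC3F, APOBEC3G and APOBEC3H, out of 58884 gene identifiers in the deposited counts, and all 7 were found. Cells labelled WT (line T47D AAV) and cells labelled PARP1 KO (line T47D JL) each received niraparib or olaparib at 10 μmol/L, or the vehicle DMSO, for 48 hours. Each of the 6 groups had 3 libraries of polyadenylated RNA, 18 in all, and no other allele or agent is named for any group. The labels do not say whether the libraries of a group came from separate cultures or whether the knockout is a single clone, so P values measure the spread between these libraries only.

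APOBEC3 proteins are zinc-dependent enzymes that turn cytosine into uracil in single-stranded DNA. They restrict retroviruses and mobile elements, and several of them also leave C-to-T and C-to-G mutations in tumor genomes. APOBEC3B, a nuclear member, is the one most often described as raised in breast cancer, whereas APOBEC3G and APOBEC3F are best known as lymphocyte factors against HIV. The uracil that they leave is cut out by glycosylases such as UNG, and the break that follows is a substrate of the repair pathway in which PARP1 acts.

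The genes lie head to tail on the plus strand of chromosome 22 (GRCh38), from APOBEC3A at 38952741–38992778 and APOBEC3B at 38982347–38992804, over APOBEC3C at 39014257–39020352, APOBEC3D at 39021113–39033277 and APOBEC3F at 39040604–39055972, to APOBEC3G at 39077067–39087743 and APOBEC3H at 39097224–39104067. They arose by duplication, and the sequence that codes for the zinc-binding motif shows how alike they are. In GENCODE 44 transcripts of the same build, a script looked for the codons of the zinc-binding motif (His, any, Glu, then Pro-Cys, 2 to 4 codons and Cys). It found 1 such window in APOBEC3A, APOBEC3C and APOBEC3H and 2 in APOBEC3B, APOBEC3D, APOBEC3F and APOBEC3G. The windows below are shown because 3 of them are shared base for base by different members. They are written from the first His codon to the last Cys codon, with the motif codons in capitals.

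APOBEC3B window 1 (exon 3 of 8, chr22:38985833-38985937) and APOBEC3F window 1 (exon 3 of 7, chr22:39044962-39045066): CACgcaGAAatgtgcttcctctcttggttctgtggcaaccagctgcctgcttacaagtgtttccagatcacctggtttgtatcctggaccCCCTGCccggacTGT
APOBEC3B window 2 (exon 6, chr22:38991365-38991475) and APOBEC3A window (exon 3 of 5, chr22:38961420-38961530): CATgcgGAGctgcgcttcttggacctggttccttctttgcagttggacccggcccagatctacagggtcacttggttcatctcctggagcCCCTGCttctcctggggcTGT
APOBEC3F window 2 (exon 6, chr22:39052095-39052199) and APOBEC3D window 2 (exon 6 of 7, chr22:39031715-39031819): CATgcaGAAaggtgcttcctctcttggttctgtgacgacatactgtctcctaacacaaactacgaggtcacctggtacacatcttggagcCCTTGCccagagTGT
APOBEC3H window (exon 3 of 5, chr22:39101246-39101350): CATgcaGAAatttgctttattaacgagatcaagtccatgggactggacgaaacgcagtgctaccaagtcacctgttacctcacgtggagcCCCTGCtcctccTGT

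The first window of APOBEC3B and of APOBEC3F was the same in 105 of 105 bases, within a coding stretch of 131 bases that both genes hold. The second window of APOBEC3B and the only window of APOBEC3A were the same in 111 of 111 bases, within a shared stretch of 196 bases. The APOBEC3H window was 56.2% identical to the first window of APOBEC3B. Of all 50-base words in its canonical transcript, APOBEC3B had 34.6% in another gene, APOBEC3A 31.1%, APOBEC3F 11.6%, APOBEC3C 1.23%, APOBEC3D 89.0% and APOBEC3H 0%, and APOBEC3G had 197 of 1515. Where such a word lies at separate places in the genome, a read within it could be counted for either gene. This is because a read with several alignments was counted at its primary one. For APOBEC3D, 2072 of its 2194 such words were shared with a gene that overlaps its exons by 2104 bases. Only 15.3% of the APOBEC3D words were in another APOBEC3 gene. Reads on exons of more than 1 gene were not counted, which left APOBEC3D with 425 countable exon bases of 2529, APOBEC3B with 1548 of 1896 and APOBEC3A with 2011 of 2359.

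The libraries held between 28890837 and 52251288 counted reads. PARP1 had 337 ± 26.8 CPM (counts scaled to library size by TMM; SD, n = 9) in WT libraries and 25.1 ± 1.39 CPM (n = 9) in PARP1 KO libraries, which did not overlap (2-sided exact permutation test, P = 4.11e-05). All 8 luminal markers were present in every group, with a summed level of 8866 to 14391 CPM. The summed level was 8866 to 9761 CPM in WT cells with niraparib and 9637 to 10055 CPM with olaparib, against 12316 to 12863 CPM with DMSO, and in PARP1 KO cells 12619 to 13014, 11609 to 12674 and 13668 to 14391 CPM in the same order. The 8 lymphoid and myeloid markers read, which mark blood cells that use several APOBEC3 genes, summed to 0.24 to 0.80 CPM in all libraries, with CD14 at a mean of 0.25 CPM, PTPRC at 0.064 CPM and CD3E at 0.010 CPM. CD2 had 5 reads and MS4A1 2 reads over all 18 libraries. Those sums were 0.37 to 0.77 CPM in WT DMSO, 0.33 to 0.57 CPM in WT niraparib and 0.38 to 0.57 CPM in WT olaparib libraries, and 0.27 to 0.42, 0.32 to 0.80 and 0.24 to 0.60 CPM in the PARP1 KO libraries in the same order. The 6 fibroblast and endothelial markers summed to 89.2 to 154 CPM, nearly all from COL1A1 (mean 109.9 CPM). In bulk RNA, a change in the number of cells of a type and a change in RNA per cell cannot be told apart.

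APOBEC3B and APOBEC3F made up nearly the whole family in these cells. APOBEC3B took 21220 reads over the 18 libraries, 75.2% of all APOBEC3 reads, and APOBEC3F took 6852 reads, 24.3%. The other 5 members had 72 reads (APOBEC3C), 62 (APOBEC3H), 8 (APOBEC3D), 7 (APOBEC3A) and 3 (APOBEC3G). On the scale of reads per length of countable exon and depth (RPKM), the mean level was 20.3 ± 2.20 for APOBEC3B (SD, n = 18), 1.95 ± 0.316 for APOBEC3F, 0.0678 ± 0.0644 for APOBEC3H, 0.0429 ± 0.0441 for APOBEC3C, 0.0263 ± 0.0498 for APOBEC3D, 0.00487 ± 0.00882 for APOBEC3A and 0.00072 ± 0.0024 for APOBEC3G. The steps from APOBEC3B to APOBEC3F and from APOBEC3F to APOBEC3H were larger than the spread between libraries. APOBEC3H, APOBEC3C and APOBEC3D did not differ from each other beyond theirs.

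**Figure D1:**
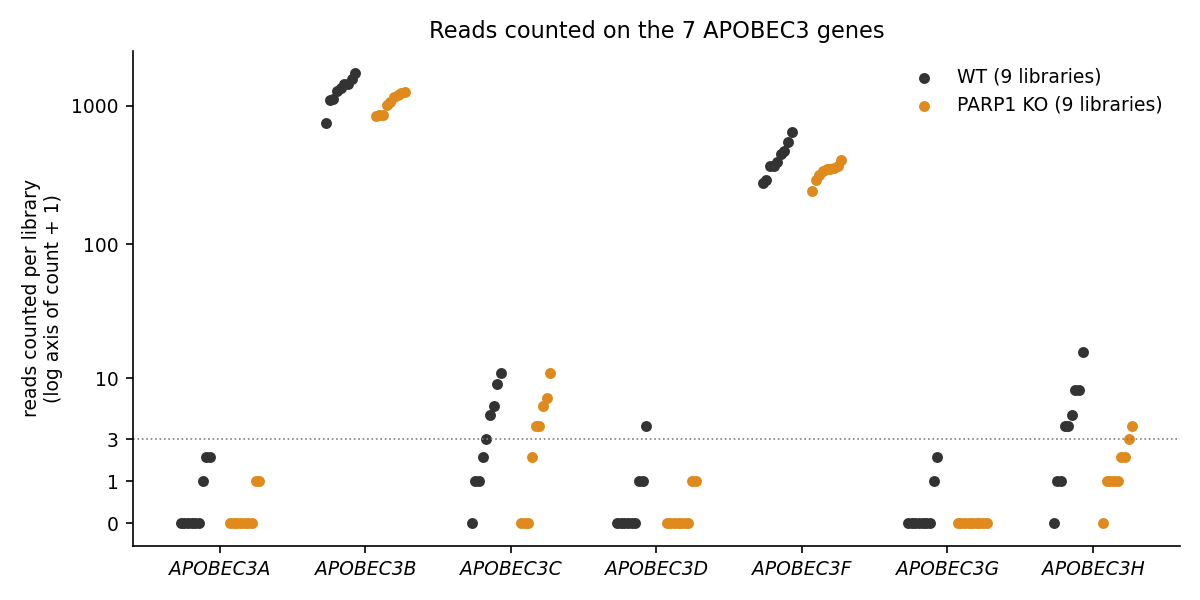
Reads counted on each of the 7 APOBEC3 genes (x axis) in each library (y axis, reads per library, log axis of the count + 1), with WT libraries in black and PARP1 KO libraries in orange, and the dotted line at 3 reads. Every library has at least 754 reads on APOBEC3B and 244 on APOBEC3F, whereas no library has more than 16 on any other member.

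APOBEC3B (ENSG00000179750) was counted in WT cells at 25.1, 30.2 and 31.7 CPM with DMSO, at 33.0, 31.0 and 33.2 CPM with niraparib and at 37.1, 38.7 and 35.6 CPM with olaparib. In PARP1 KO cells it was counted at 29.1, 27.8 and 32.4 CPM with DMSO, at 30.3, 31.0 and 27.4 CPM with niraparib and at 32.4, 31.5 and 28.6 CPM with olaparib. The 3 WT olaparib libraries were the 3 highest of the 18, and the lowest of all was a WT DMSO library. Ordered by group mean, WT olaparib (37.2 ± 1.58 CPM, SD, n = 3) stood above WT niraparib (32.4 ± 1.19 CPM) without overlap, and below these followed PARP1 KO olaparib (30.8 ± 1.97), PARP1 KO DMSO (29.8 ± 2.37), PARP1 KO niraparib (29.6 ± 1.93) and WT DMSO (29.0 ± 3.45), of which each overlapped its neighbor.

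APOBEC3F (ENSG00000128394) was counted in WT cells at 9.19, 9.21 and 7.26 CPM with DMSO, at 13.4, 11.8 and 13.6 CPM with niraparib and at 10.2, 9.91 and 11.6 CPM with olaparib. In PARP1 KO cells it was counted at 9.77, 10.4 and 9.20 CPM with DMSO, at 10.3, 10.7 and 8.32 CPM with niraparib and at 9.59, 10.2 and 8.31 CPM with olaparib. Here the 3 WT niraparib libraries were the highest, just above the highest WT olaparib library. The group means were 12.9 ± 0.9996 CPM (SD, n = 3) in WT niraparib, 10.6 ± 0.921 in WT olaparib, 9.78 ± 0.586 in PARP1 KO DMSO, 9.77 ± 1.27 in PARP1 KO niraparib, 9.36 ± 0.965 in PARP1 KO olaparib and 8.56 ± 1.12 in WT DMSO. Only the step from WT niraparib to WT olaparib was free of overlap between neighbors in this order.

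**Figure D2:**
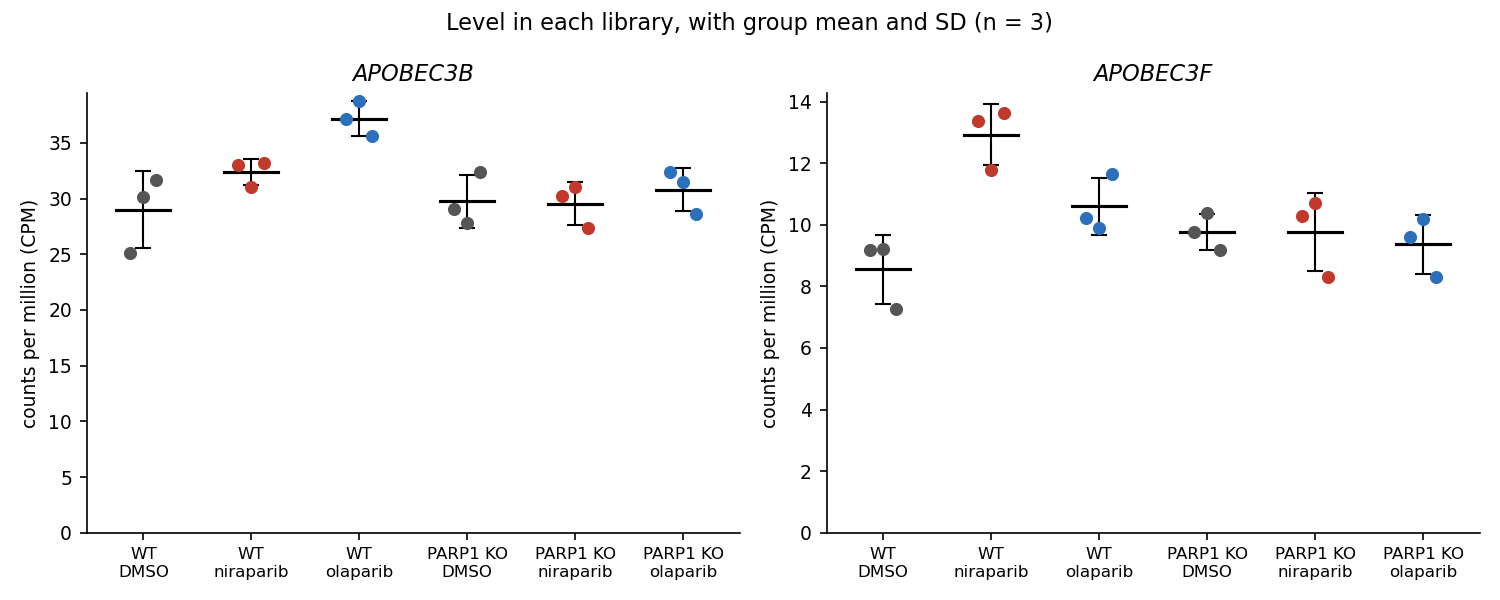
Level of APOBEC3B (left) and APOBEC3F (right) in CPM (y axis, from 0) in each library (points) of the 6 groups (x axis), with the group mean (line) and SD (bar, n = 3). The highest group is WT olaparib for APOBEC3B, at 37.2 CPM, and WT niraparib for APOBEC3F, at 12.9 CPM.

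Niraparib raised APOBEC3F in WT cells. With niraparib against DMSO it differed by 0.59 on the log2 scale (standard error 0.107, adjusted P = 1.1e-04, edgeR quasi-likelihood test with Benjamini-Hochberg adjustment), a fold of 1.51 with a 95% interval of the log2 value from 0.37 to 0.81, and all 3 niraparib libraries lay above all 3 DMSO libraries. Calls required both an adjusted P value under 0.05 and more than 1.5-fold, which APOBEC3F met with little to spare. Of the 4 members tested it was the 1 called, beside 13.8% of all 22446 genes called in this comparison (8.10% higher). APOBEC3B differed by 0.15 on the log2 scale (standard error 0.073, adjusted P = 0.11), and its niraparib libraries overlapped those with DMSO. Without WT DMSO replicate 3 its value was 0.22 (adjusted P = 0.041), which passed the adjusted threshold, and without WT DMSO replicate 1 it was 0.063 (adjusted P = 0.50). Of the fits that left out 1 library, those without WT DMSO replicate 3, WT niraparib replicate 1 or WT niraparib replicate 3 put APOBEC3F below 1.5-fold, with log2 values of 0.48, 0.56 and 0.55 and adjusted P values of up to 0.0017.

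APOBEC3H, a member with 1 domain whose protein is stable in some human haplotypes and not in others, had 4, 16 and 8 reads in the WT niraparib libraries. It had 0, 5 and 1 reads with DMSO and 4, 8 and 1 with olaparib. The niraparib libraries (0.12, 0.29 and 0.20 CPM) lay above the DMSO libraries (at most 0.097 CPM), but with so few reads the log2 fold change of 2.07 had a standard error of 0.85, and the adjusted P value was 0.063 (edgeR). Without WT DMSO replicate 2, which holds 5 of the 6 DMSO reads, it was 3.60 with an adjusted P value of 0.024. Groups free of overlap were found for 2 members, APOBEC3F and APOBEC3H, beside 46.7% of all genes tested.

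APOBEC3C, a small member with 1 domain, had 1, 1 and 6 reads in WT cells with DMSO, 11, 5 and 2 with niraparib and 3, 9 and 0 with olaparib. The groups overlapped, with a log2 value of 1.12 for niraparib (standard error 1.01, adjusted P = 0.43). The remaining members did not pass the minimum of more than 10 reads in a fit and were not tested. APOBEC3A, which interferon induces in myeloid cells and which is a strong DNA mutator, had 2 reads in 1 WT DMSO library, 2 in 1 WT niraparib library and 1 in 1 WT olaparib library. APOBEC3D had 1 and 4 reads in 2 WT DMSO libraries and 1 in a WT olaparib library. APOBEC3G had 1 read in a WT niraparib library and 2 in a WT olaparib library. A limit of 3 reads corresponds to 0.054 to 0.105 CPM per library, for counting error only, so changes of these members below that level were not detectable at this depth.

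Olaparib raised APOBEC3B in WT cells, by less than the fold threshold. Against DMSO it differed by 0.36 on the log2 scale (standard error 0.073, adjusted P = 0.0012, edgeR), a fold of 1.28 with a 95% interval of the log2 value from 0.21 to 0.51, and the olaparib libraries lay above all DMSO libraries. APOBEC3F also lay higher in all olaparib libraries, at a log2 value of 0.31 (standard error 0.109), with an adjusted P value of 0.0502 that missed the threshold narrowly. No member was called by both criteria, beside 4.04% of all genes, and APOBEC3B was the only one of 4 members tested with an adjusted P value under 0.05, beside 11.2% of all genes that passed upward. At an unadjusted P value under 0.05 there were 2 members, and DESeq2 called 0 by both criteria. Groups free of overlap were found for 2 members, APOBEC3B and APOBEC3F, beside 36.1% of all genes. APOBEC3B kept its direction and an adjusted P value of at most 0.012 in every fit that left out 1 library, with log2 values from 0.27 to 0.42. APOBEC3F had an adjusted P value of 0.029 without WT DMSO replicate 1 and 0.044 without WT DMSO replicate 2. Without WT DMSO replicate 3 its log2 value was 0.20 (adjusted P = 0.26), and over all fits that left out 1 library it ranged from 0.20 to 0.38.

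The inhibitors themselves, at the same dose and time, differed in opposite directions for the 2 main members. APOBEC3B was lower with niraparib than with olaparib in WT cells, at -0.21 on the log2 scale (standard error 0.073, 95% interval from -0.36 to -0.055, adjusted P = 0.033), and APOBEC3F was higher, at 0.28 (standard error 0.106, 95% interval from 0.060 to 0.50, adjusted P = 0.048). Neither passed 1.5-fold, so 0 of 4 members were called, beside 8.95% of all genes. Both had an adjusted P value under 0.05 (also 2 at an unadjusted P value under 0.05), beside 32.2% of all genes, and both had groups free of overlap, beside 44.1% of all genes. DESeq2 called 0 by both criteria. With single libraries dropped, the log2 value ranged from -0.24 to -0.17 for APOBEC3B and from 0.23 to 0.35 for APOBEC3F. Neither changed sign, but the adjusted P value of each rose above 0.05 without certain libraries. For APOBEC3B the adjusted P value was 0.101 without WT niraparib replicate 2 and 0.055 without WT niraparib replicate 3. It was 0.085 without WT olaparib replicate 1 and 0.135 without WT olaparib replicate 2. For APOBEC3F it was 0.146 without WT niraparib replicate 1, 0.153 without WT niraparib replicate 3, 0.144 without WT olaparib replicate 1 and 0.178 without WT olaparib replicate 2.

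**Figure D3:**
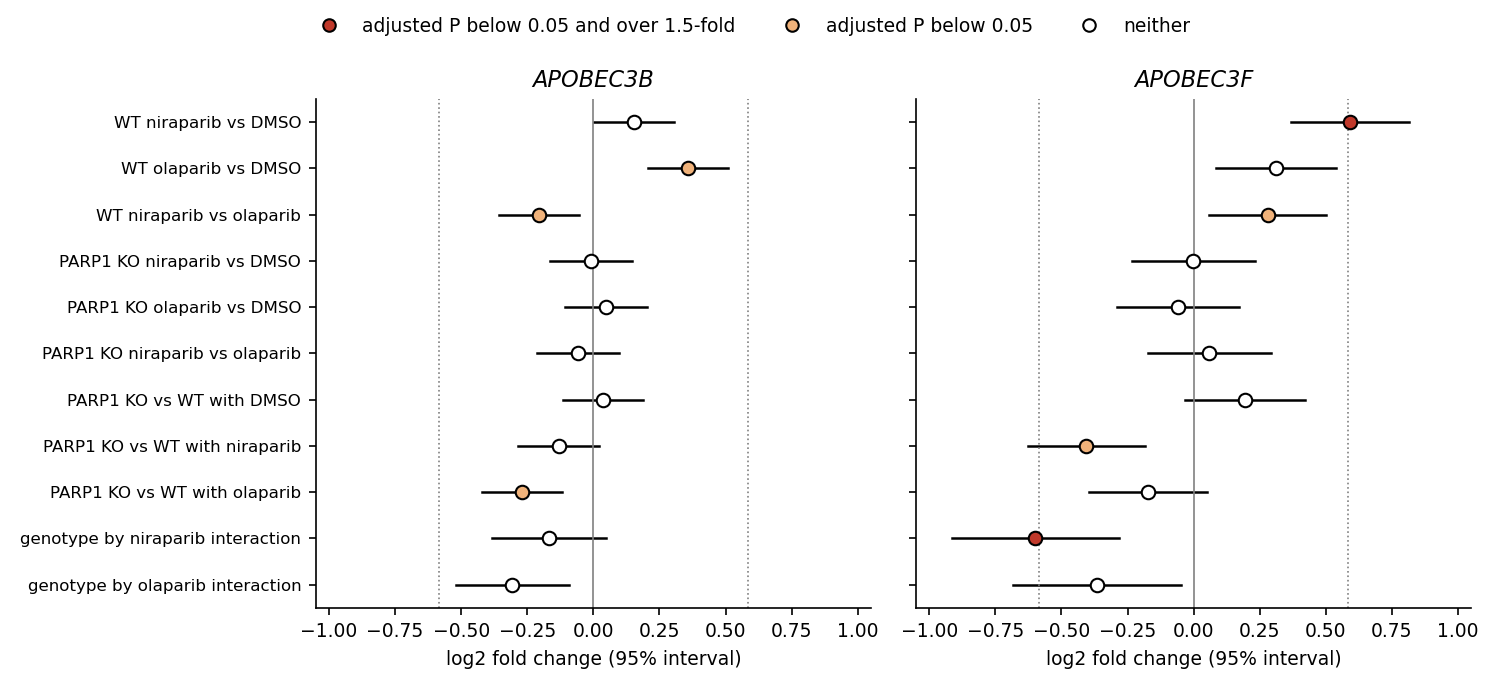
Log2 fold changes (points, x axis) with 95% intervals (bars) of APOBEC3B (left) and APOBEC3F (right) in the 11 comparisons (y axis), with red points for calls, orange points for an adjusted P value under 0.05 alone, white points for neither, and dotted lines at 1.5-fold. APOBEC3F is red in WT niraparib against DMSO (0.59) and in the genotype by niraparib interaction (-0.60), and APOBEC3B is orange in WT olaparib against DMSO (0.36).

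In PARP1 KO cells no drug effect on any member was found. With niraparib against DMSO the log2 fold change was -0.0088 for APOBEC3B (standard error 0.075, 95% interval from -0.16 to 0.15) and -0.00079 for APOBEC3F (standard error 0.112, 95% interval from -0.23 to 0.23). With olaparib it was 0.048 for APOBEC3B (95% interval from -0.11 to 0.20) and -0.059 for APOBEC3F (95% interval from -0.29 to 0.17). Calls were 0 of 4 members for niraparib, beside 0.0136% of all 22037 genes, 0 of 4 for olaparib, beside 0.803%, and 0 of 4 between the inhibitors, beside 1.07%. In these 3 comparisons 0 members had an unadjusted P value under 0.05, DESeq2 called 0, and no member had groups free of overlap, beside 15.6, 25.8 and 25.1% of all genes in the same order. APOBEC3H had 0, 4 and 1 reads in PARP1 KO cells with DMSO, 1, 2 and 1 with niraparib and 1, 3 and 2 with olaparib. APOBEC3C had 0, 7 and 4 reads with DMSO, 11, 2 and 0 with niraparib and 6, 4 and 0 with olaparib. APOBEC3A and APOBEC3D had at most 1 read in any PARP1 KO library, and APOBEC3G had 0 in all 9.

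The response of APOBEC3F to niraparib differed between the genotypes. The interaction (the niraparib effect in PARP1 KO minus that in WT) was -0.60 on the log2 scale (standard error 0.156, 95% interval from -0.92 to -0.28, adjusted P = 0.0037, edgeR), and APOBEC3F was the 1 member of 4 tested that was called, beside 8.88% of all 24675 genes (5.20% lower). It ranged from -0.67 to -0.49 in fits that left out 1 library, with adjusted P values of at most 0.022. It fell below 1.5-fold without WT DMSO replicate 3 (-0.49), WT niraparib replicate 3 (-0.58), PARP1 KO DMSO replicate 2 (-0.56) or PARP1 KO niraparib replicate 3 (-0.49). The same interaction was -0.17 for APOBEC3B (adjusted P = 0.29), -2.39 for APOBEC3H (standard error 1.499, adjusted P = 0.29) and -0.78 for APOBEC3C (standard error 1.77, adjusted P = 0.82).

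For olaparib the interaction did not pass the adjusted threshold for any member. It was -0.31 for APOBEC3B (standard error 0.106, unadjusted P = 0.0065, adjusted P = 0.12, edgeR) and -0.37 for APOBEC3F (standard error 0.157, unadjusted P = 0.026, adjusted P = 0.23). No member of 4 was called, beside 0.657% of all genes, although 2 had an unadjusted P value under 0.05, and DESeq2 called 0. The olaparib response of APOBEC3B in WT cells is therefore not shown to differ from that in PARP1 KO cells.

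Without drug no member differed between the genotypes beyond the thresholds. With DMSO, PARP1 KO against WT gave 0.036 for APOBEC3B (95% interval from -0.12 to 0.19) and 0.19 for APOBEC3F (95% interval from -0.033 to 0.42, adjusted P = 0.46), with 0 of 4 members called beside 0.146% of all genes, 0 at an unadjusted P value under 0.05, 0 by DESeq2 and none free of overlap beside 19.3% of all genes. With niraparib APOBEC3F was lower in PARP1 KO, at -0.41 (standard error 0.109, adjusted P = 0.0033), and without overlap. With olaparib APOBEC3B was lower in PARP1 KO, at -0.27 (standard error 0.075, adjusted P = 0.019), also without overlap. By both criteria 0 of 4 members were called with niraparib beside 9.13% of all genes, and 0 of 4 with olaparib beside 0.839%. At the adjusted P value alone there was 1 member each, beside 30.4% and 7.18% of all genes. The unadjusted P value was below 0.05 for 2 members with niraparib (APOBEC3F and APOBEC3H) and for 1 with olaparib, and DESeq2 called 0 in either. APOBEC3H, with few reads, passed 1.5-fold but not the adjusted P value in both comparisons, at a log2 value of -2.30 with niraparib (standard error 0.96, adjusted P = 0.070) and a fold of 0.48 with olaparib (adjusted P = 0.61). Groups free of overlap were found for 2 members with niraparib, beside 39.5% of all genes, and for 1 with olaparib, beside 24.1%. The APOBEC3F difference with niraparib had an adjusted P value of 0.054 without PARP1 KO niraparib replicate 3, at -0.29. The APOBEC3B difference with olaparib had one of 0.060 without PARP1 KO olaparib replicate 2, 0.124 without PARP1 KO olaparib replicate 3, 0.069 without WT olaparib replicate 1 and 0.098 without WT olaparib replicate 2.

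The balance of the 2 expressed members can be read within each library, free of scaling between libraries. In WT cells APOBEC3F made up 26.7, 23.3 and 18.5% of APOBEC3 reads with DMSO, 28.5, 27.3 and 29.0% with niraparib and 21.5, 20.2 and 24.6% with olaparib. The niraparib libraries held the 3 highest shares of the 18 and lay closest together (SD 0.880). In PARP1 KO cells the mean share was 24.7 ± 2.45% with DMSO, 24.7 ± 1.19% with niraparib and 23.2 ± 1.01% with olaparib (SD, n = 3). Per length, APOBEC3B stood 8.20- to 14.7-fold above APOBEC3F in every library (ratio of RPKM). That ratio was 8.46 ± 0.359 in WT niraparib libraries, 11.6 ± 2.81 in WT DMSO and 11.9 ± 1.46 in WT olaparib libraries. The WT DMSO libraries differed most among themselves, at 9.20, 11.03 and 14.7.

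**Figure D4:**
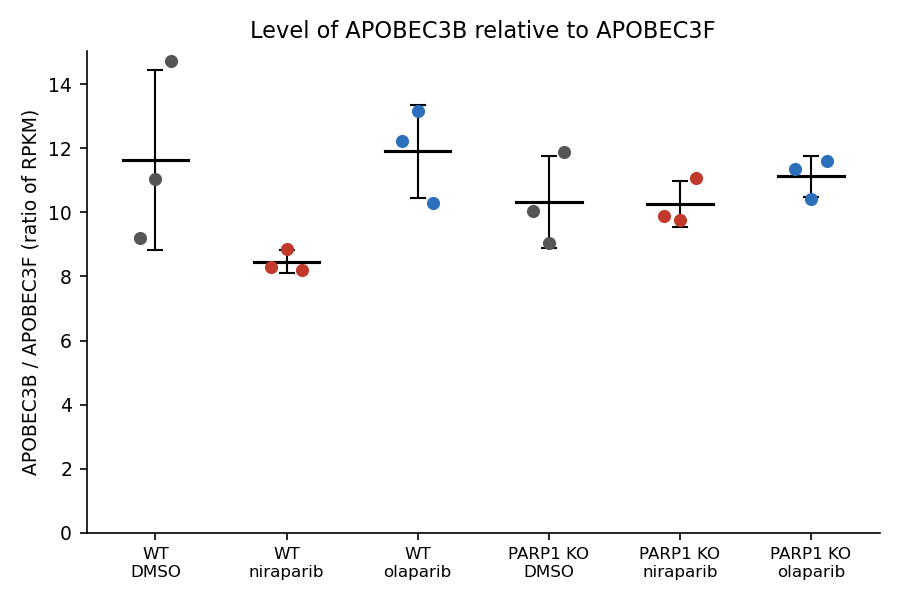
Ratio of the APOBEC3B level to the APOBEC3F level (y axis, ratio of RPKM, from 0) in each library (points) of the 6 groups (x axis), with the group mean (line) and SD (bar, n = 3). The 3 WT niraparib libraries, from 8.20 to 8.87, lie below every other library.

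Across the 18 libraries APOBEC3B and APOBEC3F did not follow each other closely. Pearson's r of log2(CPM + 0.5) between them was 0.36, a description over libraries that share their treatments. Among 13525 genes at a mean of 1 CPM or more, 4 of the 5 whose pattern was most like that of APOBEC3B were SIRT2 (r = 0.91), an NAD-dependent deacetylase, CENPQ (0.90), a kinetochore subunit, ASF1B (0.89), a histone chaperone, and ST3GAL4 (0.89), a sialyltransferase. For APOBEC3F the 5 were EFNB1 (0.89), an ephrin ligand, UBE2D1 (0.88), a ubiquitin-conjugating enzyme, IFNGR1 (0.88), the ligand-binding chain of the interferon gamma receptor, PDE4D (0.88), a cAMP phosphodiesterase, and ACTN2 (0.87), an actinin. 

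Of 16 other genes within 200 kb of the APOBEC3 genes, 6 had a mean of 1 CPM or more: SUN2, DNAL4, NPTXR, CBX6, CBX7 and PDGFB. With niraparib in WT cells 2 of the 6 were called lower, beside 5.72% of all genes, and 0 higher, beside 8.10%. At the adjusted P value alone 3 were lower and 1 higher, beside 18.1% and 19.9% of all genes. SUN2, a protein of the nuclear envelope, changed by -1.10 on the log2 scale (adjusted P = 2.4e-13, edgeR). CBX7, a Polycomb subunit and the neighbor on the APOBEC3H side, changed by -0.67 (adjusted P = 1.2e-07). With olaparib in WT cells and with either drug in PARP1 KO cells 0 of 6 were called (edgeR). The shares of all genes called were 4.04% with olaparib in WT cells, and 0.0136% (niraparib) and 0.803% (olaparib) in PARP1 KO cells. At the adjusted P value alone 1 neighbor was higher and 3 lower with olaparib in WT cells, beside 11.2% and 7.77% of all genes. In PARP1 KO cells 0 changed with niraparib, beside 0.109% of all genes, and 1 was higher with olaparib, beside 4.42%.

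Other genes tied to the APOBEC3 system were read as lists. Of the other members of the wider deaminase family, APOBEC1, which edits apolipoprotein B mRNA, had 0 reads in all libraries, APOBEC2 had 2 and APOBEC4 had 6. The 14 genes that remove uracil and repair abasic sites were all expressed. In WT cells 0 of the 14 were called with niraparib (median log2 fold change 0.071, against -0.025 over all genes) or with olaparib (0.0061, against -0.017), by edgeR. At the adjusted P value alone, 6 were higher and 1 lower with niraparib and 3 were higher and 2 lower with olaparib. UNG, the main uracil glycosylase, differed by 0.0028 with niraparib (adjusted P = 0.98) and by -0.21 with olaparib (adjusted P = 0.012). XRCC1, the scaffold of single-strand break repair that PARP1 recruits, rose by 0.55 with niraparib (adjusted P = 9.4e-08) and by 0.38 with olaparib (adjusted P = 7.1e-05), and its partner LIG3, a DNA ligase, changed by -0.39 with niraparib (adjusted P = 1.1e-06).

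APOBEC3B is known as a gene held down by E2F and DREAM repressor complexes and turned on through NF-kB. In WT cells with niraparib 6 of 19 E2F, RB and DREAM genes were called higher and 1 lower (median log2 fold change 0.15). Over all genes 8.10% were called higher and 5.72% lower. The calls in the list included E2F2 (1.10), E2F7 (0.75) and E2F1 (0.74) upward and the pocket protein RBL2 (-0.63) downward. Of 13 NF-kB genes 4 were called higher and 0 lower (median 0.44), beside the same shares, led by RELB (1.99), TNFAIP3 (1.44) and MAP3K14 (0.83). CDKN1A, an inhibitor of cyclin-dependent kinases, was called higher (2.23), and MDM2, a ubiquitin ligase, passed the adjusted P value alone (0.42, adjusted P = 6.6e-07). With olaparib the calls among these genes were E2F2 (0.90), E2F7 (0.64), TNFAIP3 (1.10), RELB (0.85) and CDKN1A (1.18), all higher. Of all genes 2.06% were called higher with olaparib.

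Of 12 cell cycle genes 8 were called lower and 1 higher with niraparib in WT cells (median -1.30), beside 5.72% and 8.10% of all genes. PLK1 (-2.46), CCNB1 (-2.19) and BUB1 (-1.89) were lowest, and MCM5 (0.63), a replication helicase subunit, was called higher. With olaparib 2 were called lower (CCNB1 at -0.70 and PLK1 at -0.63), beside 1.98% of all genes. Of 18 interferon-stimulated genes tested 6 were called higher and 1 lower with niraparib (median 0.35), led by IRF1 (1.09), XAF1 (1.07) and ISG15 (0.76), with IFIT1 at -1.23. With olaparib IRF1 (1.24) was called higher and IFI27 (-0.72) lower. Of 11 other restriction factors, genes that like APOBEC3 enzymes block viruses, MX2 (-0.86) was the only call with niraparib, and 0 were called with olaparib.

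In PARP1 KO cells 0 genes of these lists were called with niraparib (edgeR), beside 0.0136% of all genes. At the adjusted P value alone 1 cell cycle gene was lower, beside 0.0499% of all genes. With olaparib the only call there was TNFAIP3, an NF-kB target and inhibitor (0.66, adjusted P = 0.042), beside 0.803% of all genes. The interactions with niraparib were called lower for 6 of 13 NF-kB genes, led by RELB (-1.89), for CDKN1A (-2.08), and for 6 of 19 E2F, RB and DREAM genes, led by E2F2 (-1.13), beside 5.20% of all genes called lower. They were called higher for 8 of 12 cell cycle genes (3 lower), 2 of 8 luminal markers, 1 E2F, RB and DREAM gene and 1 of 11 other restriction factors, beside 3.68% of all genes called higher. Of 19 interferon-stimulated genes 2 were called higher and 3 lower, and of the 14 uracil repair genes 0 were called. At the adjusted P value alone 1 uracil repair gene was higher and 7 lower, beside 10.4% and 12.5% of all genes. The part of these genes, of the luminal markers or of the cell cycle in the APOBEC3 values was not tested.

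**Figure D5:**
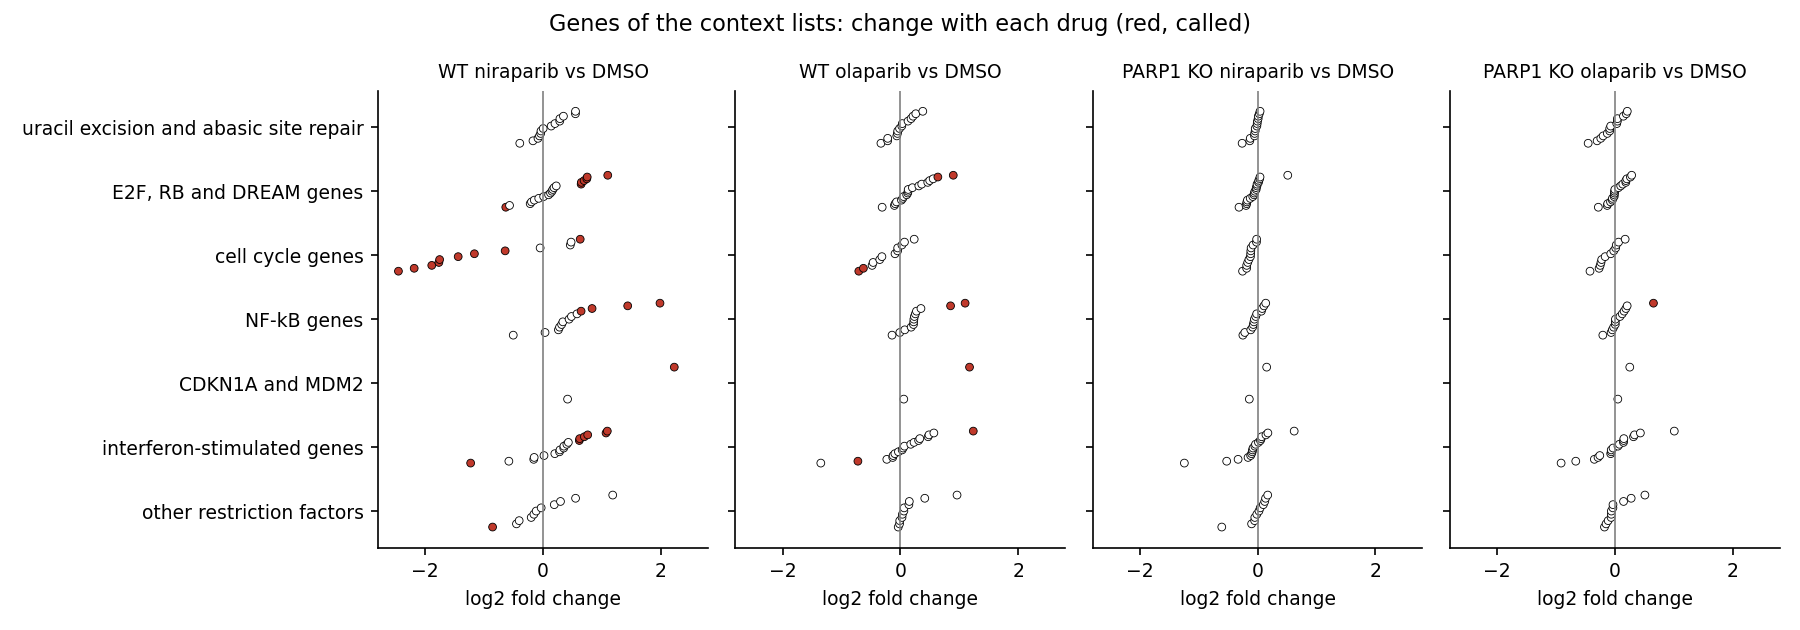
Log2 fold changes (x axis) of every gene tested (points) in 7 lists (y axis) for each drug against DMSO in WT and PARP1 KO cells (panels), with called genes in red. In WT cells with niraparib the 14 uracil repair genes hold no call, whereas 8 of 12 cell cycle genes are called lower. Of all genes 13.8% are called there, and 5.72% are called lower.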

How the data were processed

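RNA from T47D cells was sequenced in 18 libraries. The authors deposited raw counts per gene and library: reads were trimmed with Trimmomatic, mapped to GRCh38 with STAR, passed through Picard MarkDuplicates and counted on exons with featureCounts 2.0.0 (reverse strand, primary alignments) and the Ensembl 96 annotation. Whether marked duplicates were removed is not stated, and the read length is not given in the sources used here. Library totals ran from 28890837 to 52251288, so that 3 reads were worth 0.054 to 0.105 CPM.

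On the deposited counts, edgeR 4.0.16 (R 4.3.3) was run for genes whose total exceeded 10 (TMM, robust quasi-likelihood F test, Benjamini-Hochberg over all genes tested). Fits within a genotype used 9 libraries and comparisons between genotypes all 18, with biological coefficients of variation of 7.04% (WT), 7.42% (PARP1 KO) and 7.24% (all). The standard error is the size of the log2 fold change over the square root of F. CPM values use TMM factors over all 18 libraries, and RPKM divides them by exon bases on which reads could be counted. Drug comparisons within a genotype share their DMSO libraries.

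The members and the lists were chosen with earlier results of these data known. Named were all members, the called genes of each list with the largest change (at most 3 each way), neighbors within 200 kb at 1 CPM or more, and the 5 genes most alike; UNG, XRCC1, LIG3, MDM2 and the marker genes were chosen after their values were seen. Replicate libraries differed by a chi-square per gene of 3.00 to 17.3 over 18 pairs, more than sampling noise. WT DMSO replicate 1 differed by 17.3 and 15.9 from replicates 2 and 3, which differed by 3.14 from each other. WT niraparib replicate 2 differed by 11.2 and 15.3 from replicates 1 and 3, which differed by 3.24. In PARP1 KO groups the values reached 16.6, between olaparib replicates 1 and 3. Labels name no batch. Alternatives were RLE factors, filterByExpr or no filter, DESeq2 1.42.0, a block for the replicate number, every library in 1 fit, the adjusted P value alone, and each library left out in turn. Protein sequences were not used here, and some genes of the lists are not reported here.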

Additional observations from a re-analysis of the deposited data

Results flagged for a closer look

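The effect of niraparib on APOBEC3F differed between the genotypes by a test of the difference itself: the genotype by niraparib interaction was -0.60 on the log2 scale (standard error 0.156, adjusted P = 0.0037, edgeR quasi-likelihood test). All 3 niraparib libraries lay above all 3 DMSO libraries in WT cells, at a log2 fold change of 0.59, whereas in PARP1 KO cells the log2 fold change was -0.00079 and the libraries overlapped. Of all genes tested, 8.88% were called for this interaction.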

How the results depend on the processing

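The rise of APOBEC3F with niraparib in WT cells, the genotype by niraparib interaction of APOBEC3F and the rise of APOBEC3B with olaparib in WT cells kept their direction and an adjusted P value below 0.05 under every alternative run. With 1 library left out, the number of members called ranged from 0 to 2 for niraparib against DMSO in WT cells and from 0 to 1 for the genotype by niraparib interaction, as fewer libraries moved APOBEC3F (and, without WT DMSO replicate 2, APOBEC3H) across a threshold. With the adjusted P value alone as criterion, members called went from 0 to 1 for olaparib against DMSO in WT cells, from 0 to 2 for niraparib against olaparib in WT cells, and from 0 to 1 for PARP1 KO against WT with niraparib and with olaparib. APOBEC3F with olaparib in WT cells passed the adjusted threshold with DESeq2 (0.31, adjusted P = 0.048) and with no filter (0.31, adjusted P = 0.027).

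The replicate numbers did not pair the libraries: 16 of 45 same-numbered pairs had a correlation of deviations above 0.1 (range -0.56 to 0.58). With the replicate block, the APOBEC3F difference between the inhibitors in WT cells was 0.28 with an adjusted P value of 0.073, and APOBEC3C with niraparib in PARP1 KO cells turned to -0.19; no count of members called changed.

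The other changes of sign were in values near 0 or in genes with few reads. APOBEC3F with niraparib in PARP1 KO cells was 0.00071 with DESeq2, 0.0029 with filterByExpr and 0.00077 with RLE factors. With 1 library left out, APOBEC3C ranged from -0.64 to 2.01 for olaparib and from -0.61 to 1.76 between the inhibitors in WT cells; in PARP1 KO cells from -1.85 to 1.28 for niraparib, -0.94 to 0.68 for olaparib and -1.57 to 1.27 between them; for PARP1 KO against WT from -0.28 to 1.99 with DMSO, -2.30 to 0.90 with niraparib and -0.95 to 1.04 with olaparib; and from -2.98 to 0.22 and -2.28 to 0.37 for the niraparib and olaparib interactions. APOBEC3H ranged from -0.90 to 1.31 for niraparib and -0.43 to 1.79 for olaparib in PARP1 KO cells, from -1.55 to 1.60 between the genotypes with DMSO and from -2.66 to 0.49 for the olaparib interaction. In PARP1 KO cells APOBEC3B ranged from -0.066 to 0.052 for niraparib and -0.10 to 0.0032 between the inhibitors, and APOBEC3F from -0.075 to 0.11 for niraparib, -0.13 to 0.015 for olaparib and -0.015 to 0.17 between them; between the genotypes with DMSO APOBEC3B ranged from -0.051 to 0.10. Depth limits APOBEC3A, APOBEC3D and APOBEC3G, which were counted at 0 in most libraries, and the shared words of APOBEC3B and APOBEC3F limit how reads were split between them.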
